A study of Homo sapiens with 6 samples.

Results

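The genes of the proteasome described here are those whose symbol is PSMA, PSMB, PSMC, PSMD, PSME, PSMF or PSMG followed by a number, pseudogenes left out. Of 26195 gene symbols in the count tables, 43 matched: 6 alpha subunits, 8 beta subunits, 6 ATPases, 14 genes of the PSMD class, 4 activators, the inhibitor PSMF1 and the 4 PSMG chaperones. PSMA1, PSMA2, PSMB8, PSMB9 and PSMB11 were not analysed here. The label fits the symbols, although PSMD5, PSMD9 and PSMD10 are chaperones of 19S assembly rather than subunits of the finished particle.

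The proteasome is the protease complex that degrades ubiquitin-tagged proteins in the cytoplasm and nucleus. Its 20S core is a barrel of alpha rings, which gate the entrance, and beta rings, which carry the proteolytic sites. The 19S cap holds an ATPase ring that unfolds substrates and non-ATPase subunits that bind ubiquitin and cut it off. Alternative caps (the PSME genes) can sit on the core in place of 19S, and the PSMG chaperones help to build the alpha ring. Cytokine signals can exchange some beta subunits for immunoproteasome versions. Core and cap together form the 26S proteasome.

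The study profiled PC9, a human non-small cell lung carcinoma line that depends on a mutated EGFR, by Drop-seq, which counts unique molecular identifiers (UMIs) at transcript ends in single cells. It asked how single cells respond to the EGFR inhibitor erlotinib when the histone demethylases KDM5A and KDM5B are manipulated. Each of the 6 conditions was 1 library, so a difference between single libraries has no replicate check. No library analysed here combined erlotinib with unmanipulated KDM5, and the erlotinib comparison is therefore 4 differently manipulated libraries against 2 drug-free ones.

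The erlotinib libraries, 4 in number, all had 2 µM of the drug for 1 day. In the first, CPI-455, a KDM5 inhibitor, was present at 6.25 µM for 4 days and no virus was used. The second carried a KDM5A shRNA lentivirus (pLVTHM with GFP), with erlotinib from day 4 after transduction. A further library is labelled KDM5A and KDM5B shRNA and had both viruses, with erlotinib from day 5. In the last, KDM5A cDNA was expressed from a CMV promoter in a pLenti vector, with erlotinib from day 6. The scrambled library carried a scrambled shRNA in the pLVTHM vector and no drug, and the untreated library had neither virus nor drug. Growth medium held 5% serum, and transduced cells were moved to 10% serum, so the CPI-455 library is set against untreated cells and the 3 transduced erlotinib libraries against scrambled cells.

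Barcodes were kept from 500 UMIs upwards if mitochondrial genes took no more than 20% of them. This left 131 to 374 cells and 590091 to 1596385 UMIs in the erlotinib libraries, against 263 scrambled cells with 1294422 UMIs and 1166 untreated cells with 3956647 UMIs. Mitochondrial UMIs made up 7.04 to 9.18% with erlotinib, against 5.03% in scrambled and 3.98% in untreated cells. The libraries also split by the share of UMIs on processed pseudogenes, which was 2.38 to 3.25% in 3 erlotinib libraries, against 1.25% in the KDM5A shRNA, 1.31% in the scrambled and 0.956% in the untreated library. KDM5A was at 56.4 UMIs per 1000000 (CPM) in the KDM5A shRNA library and 81.9 CPM in the scrambled one. It was at 41.3 CPM in the library labelled KDM5A and KDM5B shRNA, 164 CPM with KDM5A cDNA, 120 CPM with CPI-455 and 121 CPM in untreated cells. KDM5B was at 138 CPM in the library labelled KDM5A and KDM5B shRNA and 46.4 CPM in scrambled cells. KDM5B was higher in all 4 erlotinib libraries (94.9 to 151 CPM) than in both drug-free ones (46.4 and 60.4 CPM), so this comparison does not show whether it was knocked down, and the label is quoted. Epithelial keratins were abundant in all libraries (KRT18 1525 to 2773 CPM). Of 3 blood cell markers measured, CD14 and LYZ were at 0 to 1.69 CPM and CD68, a lysosomal protein found in many cell types, at 22.03 to 42.5 CPM. Of 5 stromal and endothelial markers the highest value was 11.3 CPM (CDH5). Of 2287 kept barcodes, 1 was found in more than 1 library.

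Promoter windows from RefSeq (assembly GRCh38.p14), the 250 bases before an annotated start, were matched for 37 of the 43 genes. They are shown for the pair of members with a window whose fitted erlotinib fold was lowest, PSMD14 and PSMG1, for the catalytic subunit gene PSMB5, whose fold was near 0, and for PSME1, the member with the highest fold. Capitals mark CCAAT, the NF-Y box, and CGGAAG, a core of ETS factor sites, on either strand. This pair of motifs was picked for the capitals after the matches had been seen. PSMB5 has 2 annotated starts. The window printed is the 1 that holds CCAAT, and the other holds neither motif.
PSMD14 (chr2:161308175-161308424, plus strand): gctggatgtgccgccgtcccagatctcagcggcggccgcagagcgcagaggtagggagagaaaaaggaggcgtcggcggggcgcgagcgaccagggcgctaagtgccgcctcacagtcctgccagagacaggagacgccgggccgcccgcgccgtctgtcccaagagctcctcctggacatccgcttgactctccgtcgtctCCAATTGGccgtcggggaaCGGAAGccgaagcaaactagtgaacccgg
PSMG1 (chr21:39183452-39183701, minus strand): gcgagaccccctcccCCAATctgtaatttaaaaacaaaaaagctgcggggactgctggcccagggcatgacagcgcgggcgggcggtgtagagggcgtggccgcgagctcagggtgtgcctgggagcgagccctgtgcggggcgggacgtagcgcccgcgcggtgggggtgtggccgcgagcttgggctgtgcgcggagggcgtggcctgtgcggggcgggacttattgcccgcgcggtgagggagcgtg
PSMB5 (chr14:23035221-23035470, minus strand): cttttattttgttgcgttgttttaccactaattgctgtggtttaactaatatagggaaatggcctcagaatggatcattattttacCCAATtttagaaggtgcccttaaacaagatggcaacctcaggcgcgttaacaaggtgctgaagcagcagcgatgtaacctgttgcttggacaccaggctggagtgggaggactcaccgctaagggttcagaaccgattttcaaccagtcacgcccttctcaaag
PSME1 (chr14:24135944-24136193, plus strand): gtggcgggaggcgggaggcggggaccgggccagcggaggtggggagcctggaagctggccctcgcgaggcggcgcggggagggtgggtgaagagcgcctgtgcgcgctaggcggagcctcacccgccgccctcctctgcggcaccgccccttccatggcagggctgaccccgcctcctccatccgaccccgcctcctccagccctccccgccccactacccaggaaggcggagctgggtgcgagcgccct

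In PSMD14 the CCAAT box reads on both strands, overlapping itself, and lies close before a CGGAAG. The PSMG1 window and the printed PSMB5 window each hold CCAAT once, and the PSME1 window holds neither motif. CGGAAG was found before the start of 21 of the 37 members, against 36.0% of the 7050 tested genes with a window and 19.4% of all 27305 genes with one. CCAAT was found in 16 of the 37, against 41.5% of the tested genes and 37.0% of all genes with a window. Among the members that fell with erlotinib, 9 of 17 with a window held CGGAAG, against 10 of the 17 that did not pass the test. For CCAAT the counts were 10 of 17 and 6 of 17. The spaced motif TGANNNNGC, a loose form of the antioxidant response element, was in 22 members (44.2% of tested genes). An interferon-response form (GAAA, any pair of bases, then GAAA again) was in 5 (3.09% of tested genes). TGACTCAGC, a stricter form of the spaced motif, and TGACGTCA, a separate motif, were in none (0.582% and 3.97% of tested genes). All motifs were searched on both strands, and a match is a description of the letters in these windows only.

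Transcripts of the 43 genes took up a smaller part of the cells' RNA in all 4 erlotinib libraries. They made up 0.682% of UMIs with CPI-455, 0.820% with KDM5A shRNA, 0.712% in the library labelled for both shRNAs and 0.769% with KDM5A cDNA, against 1.36% in scrambled and 1.12% in untreated cells. The 34 genes of the 20S and 19S classes summed to 5988, 7149.9, 6120.2 and 6741 CPM in the same order of erlotinib libraries, against 12444 CPM in scrambled and 10088 CPM in untreated cells. The counting intervals of the 4 erlotinib sums, the widest of which ran from 6533 to 6954 CPM, did not reach those of the drug-free sums. In bulk sums of this kind, fewer cells with high levels and less RNA per cell cannot be told apart. UMIs tag transcript ends and are not scaled to length, so levels are compared between libraries and not between genes.

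**Figure D1:**
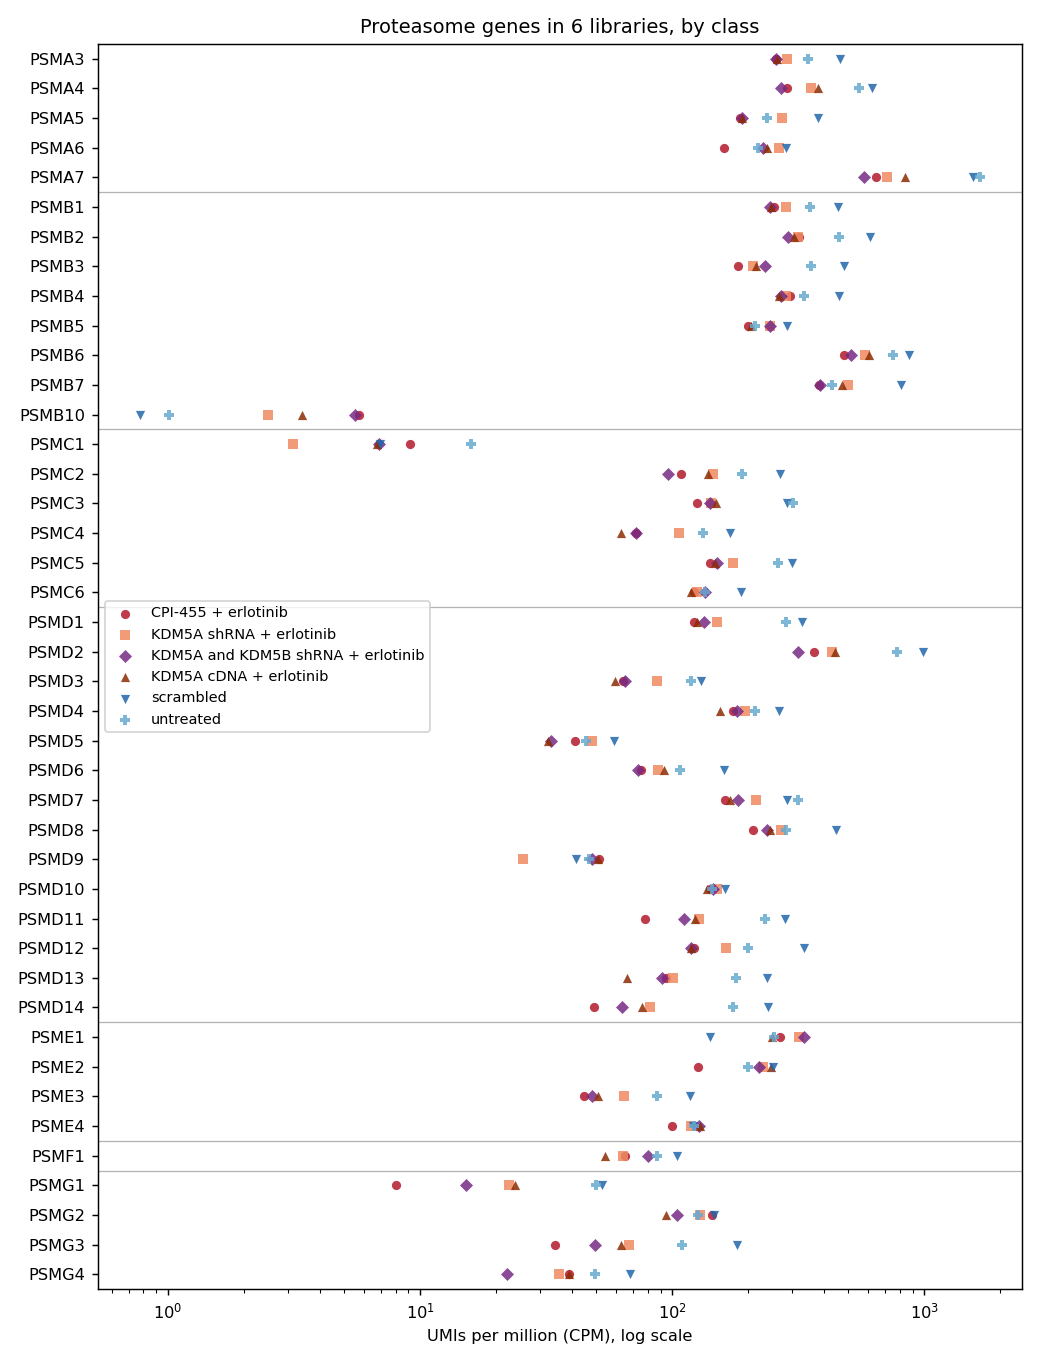
Level of 42 proteasome genes (rows, grouped by class with grey lines) in CPM on a log axis, 1 point per library, with erlotinib libraries in red, orange, purple and brown and drug-free libraries in blue. For most 20S and 19S genes the 4 erlotinib points lie left of both blue points, while PSME1, PSMD9 and PSMB10, among others, do not follow that order. PSMA8, with 1 UMI in all, is left out of the plot.

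Of the 40 members with enough counts to test, 19 fell with erlotinib and 0 rose by edgeR's quasi-likelihood test at an adjusted p under 0.05, and 21 did not pass. At an unadjusted p under 0.05 there were 28, counted in either direction, and the share of all genes at that limit was not counted. Over all 10445 genes tested, 13.5% fell and 10.0% rose, so the members' share of falls, 47.5%, stood above the background. The members' median log2 fold was -0.67, against 0.01 over all genes tested, and 38 of the 40 folds were below 0. In 28 members all 4 erlotinib libraries lay below both drug-free ones, an order shown by 26.7% of all genes tested. The count was 8 without the scrambled library, 11 after thinning of the cells to 1000 UMIs (37 members tested) and 10 without the library labelled KDM5A and KDM5B shRNA, against 8.02%, 11.4% and 8.36% of all genes. With the pseudogene split as a term it was 2 (PSMA7 and PSMD14) of 40, no more than the 5.85% of all genes that fell there, in a fit that in effect sets the KDM5A shRNA library alone against the drug-free ones.

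In the alpha ring, 2 of 5 tested genes fell, PSMA7 and PSMA4. PSMA7, which encodes the alpha4 subunit, had 644, 712, 579 and 837 CPM with CPI-455, KDM5A shRNA, the library labelled for both shRNAs and KDM5A cDNA, against 1557 CPM in scrambled and 1672 CPM in untreated cells. All 4 erlotinib values were thus far below both others (log2 fold -1.18 ± 0.20 SE, adjusted p = 0.0028). PSMA4 had 286, 357, 271 and 379.6 CPM with erlotinib in that order, against 619.6 and 550.5 CPM in scrambled and untreated cells (-0.81 ± 0.21, adjusted p = 0.021). PSMA3 and PSMA5 had folds of -0.56 and -0.52 and did not pass (adjusted p = 0.069 and 0.17). PSMA6 was at -0.13 ± 0.25, its erlotinib values of 160 to 265 CPM overlapping the drug-free ones of 284 and 219.9 CPM. PSMA8, the testis form of an alpha subunit, had a single UMI, in the library labelled KDM5A and KDM5B shRNA, and was listed at 0 in the other 5 libraries, where the floor of 3 counts is 0.758 CPM in the deepest.

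Among the beta subunits, 2 of 7 tested genes fell, and both are non-catalytic. PSMB3 had 183, 209.8, 234 and 215 CPM in the 4 erlotinib libraries, against 479 CPM in scrambled and 354 CPM in untreated cells (log2 fold -0.95 ± 0.21, adjusted p = 0.011). PSMB2 had 319, 317, 289 and 305 CPM, against 607 and 460.0 CPM (-0.76 ± 0.20, adjusted p = 0.021). The erlotinib values of both genes were tightly grouped and did not overlap the drug-free ones. The 3 genes of the catalytic sites did not pass the test. PSMB5, of the chymotrypsin-like site, had 200, 244, 244 and 205 CPM with erlotinib, against 285 CPM in scrambled and 214 CPM in untreated cells, so the groups overlapped (-0.12 ± 0.22, adjusted p = 0.73). PSMB6, of the caspase-like site, had 482 to 603 CPM, against 868 and 752 CPM, without overlap (-0.53 ± 0.20, adjusted p = 0.077). PSMB7, of the trypsin-like site, had 381 to 500 CPM, against 807 and 431 CPM (-0.47 ± 0.27, adjusted p = 0.22). PSMB1, another non-catalytic subunit, lay just outside the threshold (-0.61 ± 0.20, adjusted p = 0.051), and PSMB4 was at -0.47 ± 0.21.

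PSMB10, the immunoproteasome subunit that takes the place of PSMB7, had only 20 UMIs and was not tested. There were 5, 4, 4 and 2 UMIs in the 4 erlotinib libraries, against 1 in scrambled and 4 in untreated cells, which is 5.72, 2.51, 5.51 and 3.39 CPM, against 0.773 and 1.01 CPM. Every erlotinib value was thus above both drug-free values, on very few counts. Among the 10445 genes tested, a set without PSMB10, 1941 showed that order. Summed over libraries, PSMB10 was at 3.96 CPM with erlotinib and 0.952 CPM without, a ratio of 4.16 with an exact counting interval of 1.44 to 14.6. Its share of the UMIs of PSMB5, PSMB6, PSMB7 and PSMB10 was 0.188 to 0.535% with erlotinib, against 0.0394% in scrambled and 0.0723% in untreated cells. The exact interval of each erlotinib share overlapped both drug-free ones, which ran up to 0.219% in scrambled and 0.185% in untreated cells. A fall of the other genes also raises this share, and the folds of PSMB5, PSMB6 and PSMB7 were all below 0.

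In the ATPase ring, 4 of 5 tested genes fell. PSMC3 had 126, 142, 142 and 149 CPM in the 4 erlotinib libraries, against 286 CPM in scrambled and 303 CPM in untreated cells (log2 fold -1.03 ± 0.18, adjusted p = 0.0035). PSMC5 had 142, 175, 150.2 and 147 CPM, against 299.7 and 263 CPM (-0.83 ± 0.19, adjusted p = 0.013). For PSMC2 and PSMC4, also subunits of the ring, the folds were -0.86 ± 0.25 and -0.89 ± 0.25 (adjusted p = 0.030 and 0.029). PSMC6 was the exception, at 118.6 to 135 CPM with erlotinib, against 187 and 135 CPM (-0.32 ± 0.21, adjusted p = 0.29). PSMC1 had 94 UMIs in all and was not tested: 22 with erlotinib (5.81 CPM) and 72 without (13.7 CPM). A further 57 UMIs were on 11 symbols of PSMC1 pseudogenes, so its level is uncertain.

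**Figure D2:**
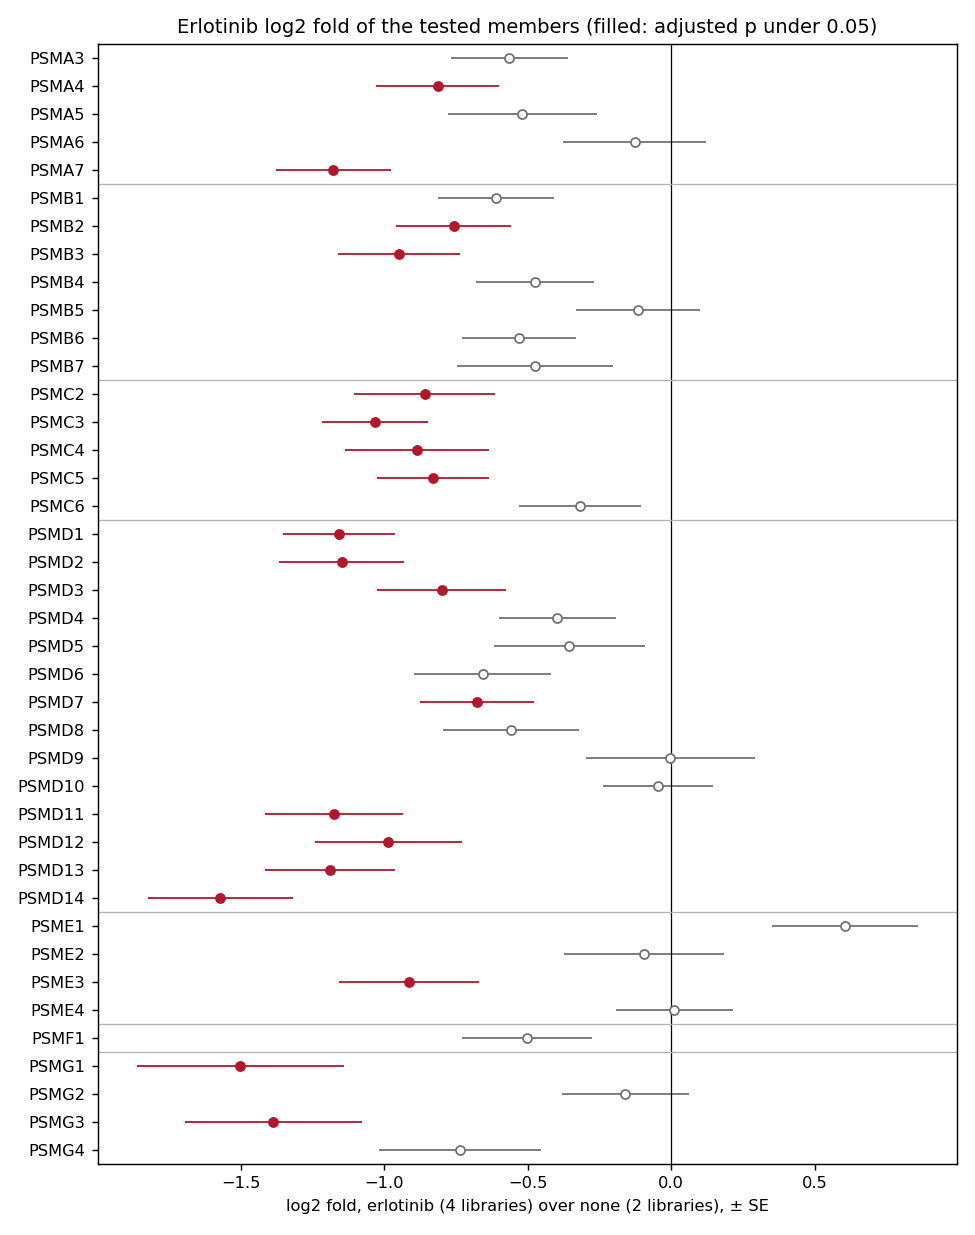
Log2 fold of erlotinib over drug-free libraries (horizontal axis, ± SE) for the 40 tested genes by class, filled red where the adjusted p of edgeR's test was under 0.05. The filled points run from -1.57 (PSMD14) to -0.68 (PSMD7), and PSME1 at 0.61 lies furthest right.

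Of the 14 PSMD genes, 8 fell, and they include the deubiquitinating enzyme of the cap. PSMD14, the metalloprotease that removes ubiquitin chains from substrates, had 49.2, 81.4, 63.4 and 76.3 CPM with erlotinib, against 241 CPM in scrambled and 174 CPM in untreated cells. Its fold, -1.57 ± 0.25 (adjusted p = 0.0020), was the lowest of the members tested. PSMD7, its inactive partner in the cap, fell by less (162.5 to 215 CPM, against 287 and 316 CPM; -0.68 ± 0.20, adjusted p = 0.032). The PSMD7 call did not hold at a limit of 10% mitochondrial UMIs or after thinning to 1000 UMIs. Nor did it hold when CPI-455, KDM5A cDNA or the library labelled KDM5A and KDM5B shRNA was left out. The calls of PSMC4, PSMD3 and PSME3 did not hold after thinning or in these left-out fits either. PSMD14 made up 2.81 to 4.03% of the UMIs of the PSMD class with erlotinib, against 6.08% in scrambled and 5.57% in untreated cells.

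The large scaffold subunits at the base of the cap both fell. PSMD2, a docking site for ubiquitin shuttle proteins, had 365, 429.7, 317 and 444 CPM in the 4 erlotinib libraries, against 990.4 CPM in scrambled and 779 CPM in untreated cells (-1.15 ± 0.22, adjusted p = 0.0047). PSMD1 had 122, 151, 134 and 125 CPM, against 328 and 284 CPM (-1.16 ± 0.20, adjusted p = 0.0026). In neither gene did the groups come near each other. Of the lid subunits, PSMD11, PSMD13, PSMD12 and PSMD3 also fell, with log2 folds of -1.17 ± 0.24, -1.19 ± 0.23, -0.99 ± 0.26 and -0.80 ± 0.22 (adjusted p = 0.0069, 0.0049, 0.020 and 0.028). The lid subunits PSMD6 and PSMD8 were at -0.66 and -0.56 and did not pass (adjusted p = 0.069 and 0.11), nor did the ubiquitin receptor PSMD4 (-0.40 ± 0.20, adjusted p = 0.18).

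The 3 chaperones of 19S base assembly in this class, PSMD5, PSMD9 and PSMD10, did not pass the test. PSMD10, also known as gankyrin, had 142, 151, 145 and 137 CPM with erlotinib, against 162 CPM in scrambled and 144 CPM in untreated cells (-0.05 ± 0.19, adjusted p = 0.88). PSMD9 was at -0.0038 ± 0.29 and PSMD5 at -0.36 ± 0.26. The antisense symbol PSMD5-AS1 had 260 UMIs beside 413 on PSMD5. The strand used in counting is not given in the sources used here, so whether reads of the pair were kept apart is not known.

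**Figure D3:**
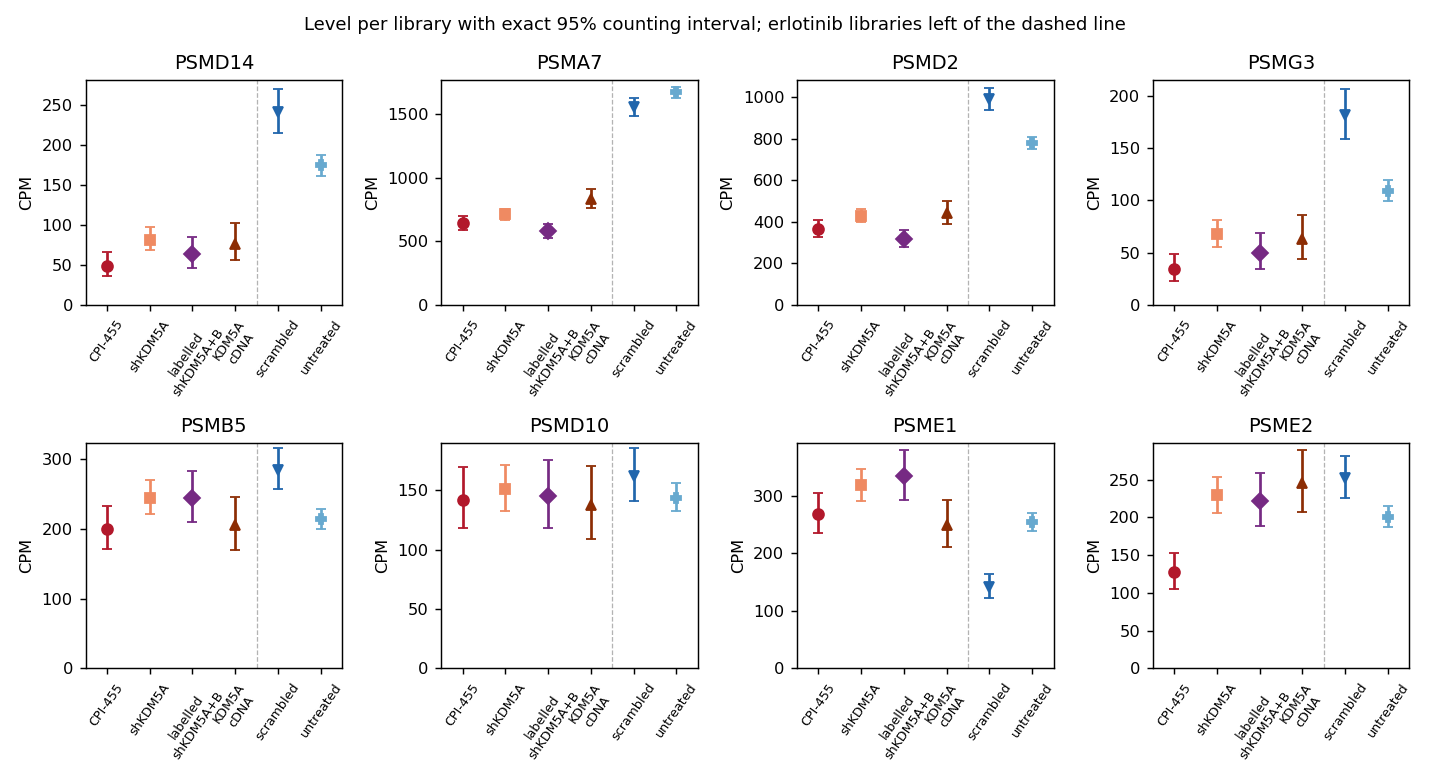
CPM of 8 genes in each library with exact 95% counting intervals, erlotinib libraries left of the dashed line. In the upper row (PSMD14, PSMA7, PSMD2 and PSMG3) the 4 erlotinib points lie below both drug-free points, while in the lower row (PSMB5, PSMD10, PSME1 and PSME2) they overlap the drug-free points or, in PSME1, lie at or above one of them.

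Of the 4 genes of the alternative caps, 1 fell and 3 did not pass the test. Their summed level was 539 to 732 CPM with erlotinib, against 631 CPM in scrambled and 664 CPM in untreated cells, and their part of all members' UMIs was 7.91 to 10.3%, against 4.63 and 5.94%. PSME1, a subunit of the cytoplasmic PA28 ring that favours peptide production for antigen display, had 268, 318, 333 and 249.1 CPM with erlotinib, against 141 CPM in scrambled and 254 CPM in untreated cells. Scrambled cells were low, and the erlotinib values spread around or above the untreated one (log2 fold 0.61 ± 0.25, adjusted p = 0.11). Without the untreated library PSME1 passed the test as higher with erlotinib, and it also did with the transduced libraries alone. In both fits the drug-free side is the scrambled library alone, which is low in PSME1 and is assumed to vary like the erlotinib libraries. PSME2, the partner of PSME1 in that ring, had 127, 229, 222 and 246 CPM, against 252 and 201 CPM (-0.09 ± 0.28, adjusted p = 0.83). PSME1 thus held 67.8, 58.1, 60.05 and 50.3% of the UMIs of the pair in the 4 erlotinib libraries, against 36.0% in scrambled and 55.9% in untreated cells. PSME3, the nuclear PA28 subunit, was the 1 activator gene that fell (44.6 to 64.5 CPM, against 117 and 87.2 CPM; -0.91 ± 0.25, adjusted p = 0.023). PSME4, the PA200 cap, was at 0.01 ± 0.20, and the inhibitor PSMF1 at -0.50 ± 0.23 (adjusted p = 0.13).

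Of the 4 chaperones that build the alpha ring, 2 fell. PSMG1 had 8.01, 22.6, 15.2 and 23.7 CPM with erlotinib, from 7, 36, 11 and 14 UMIs, against 52.5 CPM in scrambled and 50.04 CPM in untreated cells (log2 fold -1.50 ± 0.36, adjusted p = 0.015). PSMG3 had 34.3, 67.7, 49.6 and 62.7 CPM, against 182 and 109 CPM (-1.39 ± 0.31, adjusted p = 0.011). Both were lowest with CPI-455, and in neither did the erlotinib and drug-free values overlap. PSMG1 works in the same dimer as PSMG2, which was at 94.9 to 144 CPM with erlotinib, against 146 and 127 CPM (-0.16 ± 0.22, adjusted p = 0.63). PSMG4, the partner of PSMG3, was at -0.74 ± 0.28 (adjusted p = 0.082). The antisense symbol PSMG3-AS1 carried 119 UMIs, beside 878 on PSMG3, and whether reads of this pair were kept apart is not known either.

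Each erlotinib library was next set against the drug-free library of the same serum, transduced or not. The KDM5A cDNA library differs from its scrambled partner in vector as well. These are single libraries and give no test, so a 1.5-fold difference among the 3639 genes with a mean of at least 50 CPM over the 6 libraries is used as a description, and 36 members reached that level. The summed 26S level with CPI-455 was 0.594 times that of untreated cells, with a counting interval of 0.577 to 0.611. The ratio to scrambled cells was 0.575 (0.561 to 0.589) with KDM5A shRNA, 0.492 (0.476 to 0.508) in the library labelled KDM5A and KDM5B shRNA, and 0.542 (0.523 to 0.561) with KDM5A cDNA. The last 3 ratios share the scrambled library. All 4 sums were thus lower than their drug-free partner by over 1.5-fold.

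With CPI-455, 19 of the 36 members were lower by over 1.5-fold and 0 higher, against 25.6% and 18.4% of all 3639 genes. With KDM5A shRNA, 23 were lower and 1 higher (25.4% and 22.1% of all genes). In the library labelled KDM5A and KDM5B shRNA, 26 were lower and 1 higher (27.5% and 24.4% of all genes). With KDM5A cDNA, 29 were lower and 1 higher (25.7% and 21.8% of all genes). The member that was higher in each of the 3 transduced libraries was PSME1, at 2.25, 2.36 and 1.76 times the scrambled level. Median log2 ratios of the members were -0.65, -0.71, -1.005 and -0.89 in the order above, against -0.13, -0.04, -0.06 and -0.08 over all genes. PSMD14 was the member with the lowest ratio in the first 3 pairs, at 0.283, 0.338 and 0.263 times the drug-free level. With KDM5A cDNA it was PSMD13, at a log2 ratio of -1.85, and PSMD14 was at 0.316.

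**Figure D4:**
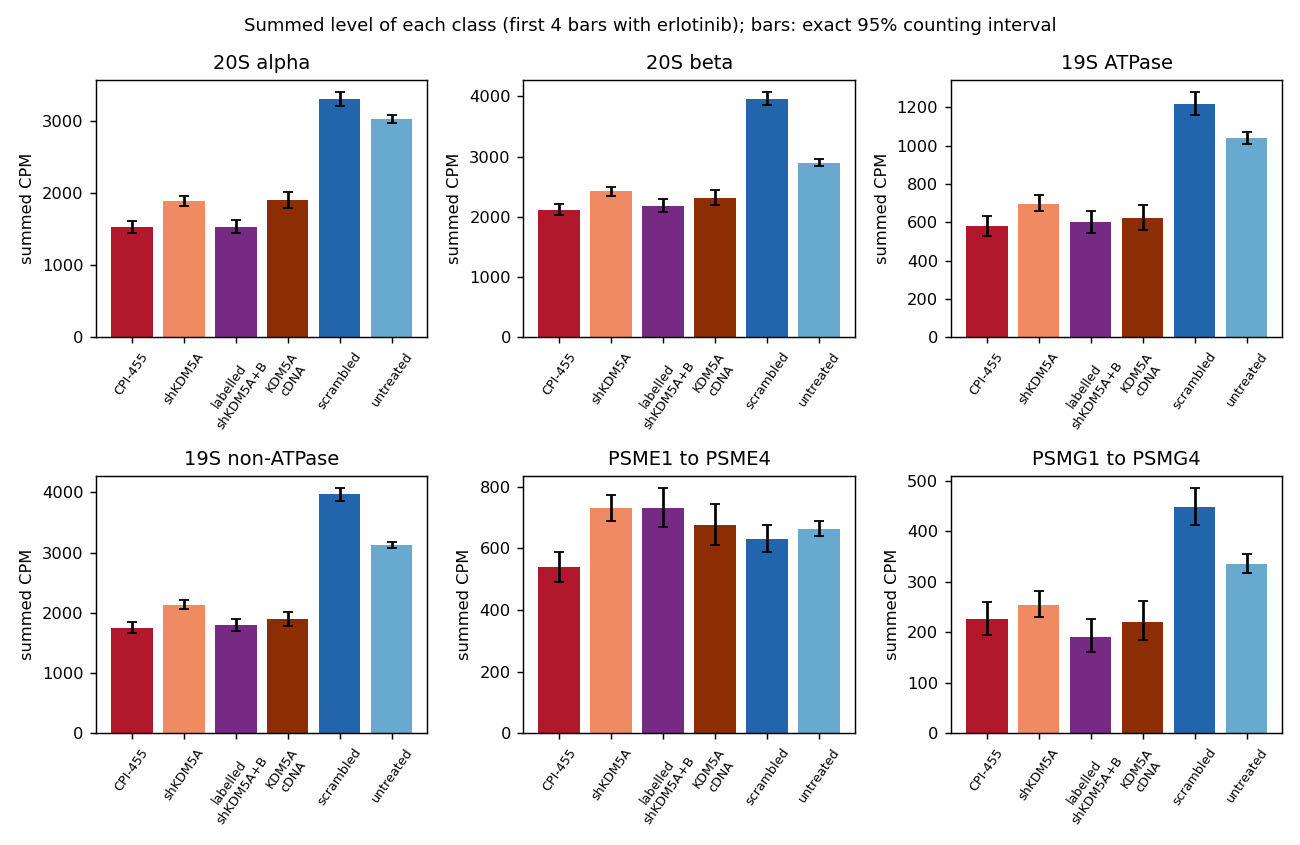
Summed CPM of 6 classes in each library, with exact 95% counting intervals, the first 4 bars with erlotinib and the blue bars without. The alpha, beta, ATPase, non-ATPase and PSMG sums are lower in all 4 erlotinib libraries than in both drug-free libraries, while the PSME1 to PSME4 sums overlap between the groups.

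The drug-free libraries also differed from each other, in the other direction for most genes. The summed 26S level in scrambled cells was 1.23 times that of untreated cells (1.21 to 1.26), and 31 of the 36 members were above 0 on the log2 scale, with a median of 0.36 against -0.01 over all genes. By over 1.5-fold, 5 members were higher and 1 lower, against 8.96% and 13.5% of all genes. PSMB7, at a log2 ratio of 0.90, was the furthest up, and PSME1, at 0.556 times the untreated level, the furthest down. Virus and serum both separate this pair and cannot be told apart. Because of this gap the distance of each erlotinib library from its partner depends on which drug-free library it is set against.

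Among the erlotinib libraries the KDM5A shRNA library had the most proteasome RNA, with the highest value in 22 of the 40 tested members and the lowest in 1. The CPI-455 library had the lowest value in 19 members and the highest in 4. The KDM5A cDNA library was lowest in 11 and highest in 10, and the library labelled KDM5A and KDM5B shRNA was lowest in 9 and highest in 4. The same ranks over all tested genes were not counted, so these counts are not read as particular to the proteasome genes. The summed 26S intervals of CPI-455 (5827 to 6152 CPM) and of the library labelled KDM5A and KDM5B shRNA (5942 to 6303 CPM) overlapped, while that of KDM5A shRNA (7019 to 7282 CPM) stood above both. The KDM5A shRNA library is also the erlotinib library with the low pseudogene share, 1.25%, and with the lowest mitochondrial share, 7.04%. The part of these shares in the order of the libraries was not tested.

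The difference was present across the cells of each library. After every cell was thinned to 1000 UMIs, which left 164, 332, 124 and 105 erlotinib cells and 222 scrambled and 822 untreated cells, a cell held on average 5.93, 6.70, 6.18 and 6.4 UMIs of the 20S and 19S genes in the 4 erlotinib libraries, against 12.6 in scrambled and 9.99 in untreated cells. The median was 6 in each erlotinib library, against 13 and 10. The 90th percentile with erlotinib, 9 or 10 UMIs, was at or below the median of both drug-free libraries. At 1000 UMIs a cell, counting made up most of the spread between cells. The squared coefficient of variation beyond counting error was 0.011 to 0.062 with erlotinib, against 0.018 in scrambled and 0.019 in untreated cells. With cells thinned to 2000 UMIs, the variance was 1.07 to 1.56 times the mean with erlotinib, against 1.59 in scrambled and 1.38 in untreated cells.

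**Figure D5:**
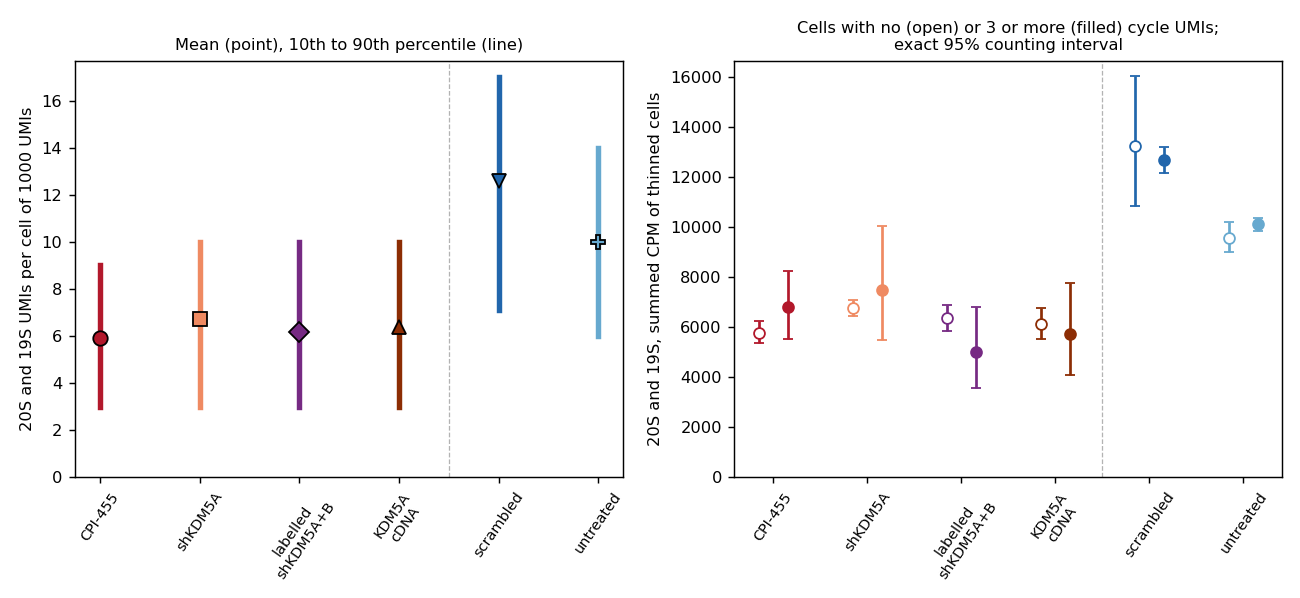
Left, UMIs of the 20S and 19S genes per cell thinned to 1000 UMIs, mean (point) and 10th to 90th percentile (line), by library. Right, the summed level of the same genes in thinned cells with no cell cycle UMI (open) or with 3 or more (filled), with exact 95% counting intervals. Open points of the drug-free libraries lie at 13250 and 9578 CPM, above all erlotinib points, which end at 7500 CPM. The interval of that 7500 CPM point (6 cells, 5471 to 10036 CPM) overlaps that of the untreated open point.

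Cell cycle genes moved with the same comparison. All 15 S phase genes of a list fell with erlotinib, and 13 of 15 G2/M genes did. A split of the thinned cells by their UMIs on these 30 genes was added after the results had been seen. In cells with no cycle UMI, the summed 26S level was 5781, 6769.5, 6351 and 6123 CPM in the 4 erlotinib libraries, against 13250 CPM in 8 scrambled cells and 9578 CPM in 102 untreated cells. Their counting intervals ran over 10848 to 16026 and 8987 to 10198 CPM. In cells with 3 or more cycle UMIs it was 6800, 7500, 5000 and 5714 CPM in the 6 to 15 such cells of each erlotinib library, against 12672 CPM in scrambled and 10106 CPM in untreated cells. The interval of the 7500 CPM value, from 6 cells, was 5471 to 10036 CPM and overlapped those of untreated cells. In cells with 3 or more cycle UMIs the 19S genes summed to 3600, 2500, 1250 and 3286 CPM in the 4 erlotinib libraries. In cells with none they summed to 2184, 2729, 2433 and 2462 CPM, so the libraries had no common direction. The CPI-455 interval of 2704 to 4697 CPM, from 15 cells, lay above that of its cells with none, 1921 to 2473 CPM. Its 20S sum did not go that way (3200 against 3596 CPM). The part of the cell cycle in the erlotinib difference was not tested. At 1000 UMIs a cell, having no cycle UMI does not show that a cell was out of the cycle.

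The partners that bind, build or regulate the proteasome were read from lists of other genes. Of 12 tested partners of the core and cap, 5 fell and 1 rose, with a median log2 fold of -0.43. POMP, which matures the beta ring, had 243, 423, 329 and 307 CPM with erlotinib, against 606 CPM in scrambled and 533 CPM in untreated cells (log2 fold -0.76 ± 0.24, adjusted p = 0.043). UCHL5 and USP14, the other deubiquitinating enzymes of the cap, fell by 1.76 and 0.72 on the log2 scale (adjusted p = 0.0023 and 0.019). UBE3C, a ligase that extends chains on the particle, and PITHD1 also fell (-0.79 and -1.11). ZFAND5, a stimulator of the 26S particle, rose: 567, 377, 438 and 329 CPM, against 141 and 183 CPM (1.43 ± 0.25, adjusted p = 0.0033). The ubiquitin receptor ADRM1 and the small subunit SHFM1 did not pass (-0.46 and -0.24).

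Of the 7 genes that regulate proteasome transcription, 0 changed by edgeR at an adjusted p under 0.05, and the median was -0.06. NFE2L1, the factor that raises subunit genes when the proteasome is blocked, had 62.9, 60.8, 68.9 and 49.1 CPM with erlotinib, against 69.5 CPM in scrambled and 83.9 CPM in untreated cells (-0.30 ± 0.22, adjusted p = 0.33), and NFE2L2 was at 0.52 ± 0.22 (adjusted p = 0.10). Of 17 genes of ubiquitin and its ligation, 2 fell, the mitotic enzyme UBE2C (-3.24) and the cullin ring protein RBX1 (-0.77), and 1 rose, UBE2D1 (1.43), with a median of -0.11. The ubiquitin genes UBB and RPS27A were at -0.05 and 0.17 and did not pass. Of 9 shuttle and segregase genes, the autophagy receptor SQSTM1 rose (0.92, adjusted p = 0.010) and the shuttle RAD23B fell (-0.68, adjusted p = 0.044), and the median was -0.23.

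Genes of antigen display and interferon response, to which PSMB10, PSME1 and PSME2 also belong, were read beside them. B2M, the light chain of MHC class I, rose: 1261, 2233, 2214 and 1273 CPM with erlotinib, against 644 CPM in scrambled and 828 CPM in untreated cells (1.29 ± 0.30, adjusted p = 0.013). It was the 1 gene of 4 tested in its list that passed. Of 8 tested interferon genes, 4 rose and 0 fell: GBP2, UBE2L6, IRF1 and IFIT3, with log2 folds of 4.33, 1.33, 2.50 and 2.03, and the list's median was 1.13. IRF1, a factor known to switch on immunoproteasome genes, had 64.1, 63.9, 60.6 and 55.9 CPM, against 8.50 and 12.9 CPM (adjusted p = 0.00031).

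Other large protein complexes were read for comparison. Of 9 COP9 signalosome genes, whose complex resembles the lid, 2 fell (COPS3 and COPS8, -1.23 and -0.78), and the list's median was -0.37. In eIF3, the other lid-like complex, 2 of 13 genes fell (EIF3J and EIF3B, -0.96 and -1.18), 1 rose (EIF3F, 0.82), and the median was 0.01. Of the 8 subunits of the TRiC chaperonin, 5 fell, CCT6A furthest (-1.32 ± 0.21, adjusted p = 0.0021), with a median of -0.88. Of 8 heat shock genes, 4 fell, among them HSP90AA1 (-1.23 ± 0.19, adjusted p = 0.0017) and HSPD1 (-1.11 ± 0.28, adjusted p = 0.019), with a median of -0.94. Falls as deep as those of the proteasome genes were thus also found in these folding complexes.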

How the data were processed

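Drop-seq gene count tables of UMIs per cell barcode were deposited by the authors, 1 per library and not normalized. Per the submitters' processing notes, FastQC and STAR were used with the GRCh37.p13 (hg19) build, and the counting settings are not given in the sources used here. Barcodes with 500 UMIs or more, of which no more than 20% were mitochondrial, were summed per library, and CPM are summed UMIs per 1000000. No doublet caller was run. The 4 erlotinib libraries were fitted against the 2 drug-free libraries with edgeR 4.0.16 (TMM factors, filterByExpr, robust quasi-likelihood test, Benjamini-Hochberg adjustment over 10445 genes) in R 4.3.3. The test treats differently manipulated libraries as replicates, so its p-values measure the spread between these libraries. On simulated counts of 9830 genes for this comparison, the fit called 100 of 100 genes changed 4-fold, 35 of 100 changed 2-fold and 7 of 9630 unchanged genes. The changed genes were drawn from well-counted genes only, and a single spread was set for all genes. PSMG1, PSMG4, PSMD5 and PSMD9 (334, 414, 413 and 390 UMIs) lie below that count, so recovery is not shown for them. Pairs of single libraries have exact 95% intervals for a ratio of counts, and shares have exact binomial intervals. All intervals cover counting error only. No p was adjusted over the members alone.

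Genes named are PSMB5 to PSMB10, the PSME, PSMF and PSMG genes, the 4 members with most UMIs in each 20S and 19S class, every member that passed, members at 0 in a library, and up to 4 genes that passed in each list, with a few others chosen after their values were seen. The members and lists were chosen with earlier results of these data known. The planned immunoproteasome share uses PSMB10 alone, since PSMB8 and PSMB9 were not analysed here. Alternatives covered normalization, filter, tool, cell filters, thinning, left-out libraries and a term for the pseudogene split. Values of some single genes in the lists are not reported here.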

Additional observations from a re-analysis of the deposited data

Results flagged for a closer look

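In 4 of the 40 members tested, 1 of the 4 erlotinib libraries stood apart from the other 3 by most of the range of the 4 values. Each time it was the KDM5A shRNA library. Chance alone gives such a gap in about 1 of 20 groups, and the share over all genes was not counted. PSMA3 was at 287 CPM in that library, against 258.7 to 261 CPM in the others. That gap was within counting error, since its interval of 261 to 314 CPM overlapped those of the other 3. PSMA5 was at 272 CPM, against 185.4 to 190.1 CPM, and its interval of 247 to 299 CPM lay above the others, which reached 228 CPM at most. PSMD12 was at 163 CPM, against 118.5 to 122.5 CPM, and its interval of 144 to 185 CPM again overlapped those of the other 3. PSMD9, the assembly chaperone, was lower instead, at 25.7 CPM against 48.2 to 51.5 CPM. Its interval of 18.4 to 34.8 CPM lay below that of CPI-455, from 37.6 CPM. It overlapped those of the library labelled KDM5A and KDM5B shRNA (from 33.6 CPM) and of KDM5A cDNA (from 34.3 CPM).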

How the results depend on the processing

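The number of members that fell with erlotinib was 19, and 18 to 20 with other size factors, DESeq2, limma-voom, no filter on low counts, all barcodes, a minimum of 1000 UMIs or a limit of 10% mitochondrial UMIs. It was 14 with the transduced libraries alone (7.93% of all genes fell there), 11 after thinning to 1000 UMIs (11.4%), where 37 members could be tested, 2 with the pseudogene split as a term (5.85%), and 8 to 22 when 1 library was left out (8.02 to 13.9%). With virus and serum as a block, a term added after seeing the data, it was 24 (13.1%), the 19 among them. The cause was not tested. The number that rose was 0, 1 with the transduced libraries alone and 0 to 1 when 1 library was left out, the 1 being PSME1. Over all settings, the 19 members kept their direction and lost the call in 63 refits and held it in 259, and the other 21 passed in 16 refits. The summed 26S log2 ratio kept its sign in each setting. For CPI-455 against untreated it was -0.75, and -0.66 with totals without mitochondrial and ribosomal protein genes or -0.70 at a limit of 10% mitochondrial UMIs. For KDM5A shRNA against scrambled it was -0.80, and -0.91 after thinning. In the library labelled KDM5A and KDM5B shRNA it was -1.02, and -1.10 with all barcodes. For KDM5A cDNA it was -0.88, and -0.81, -0.80, -0.94 and -0.98 without mitochondrial and ribosomal protein genes, at the 10% limit, with all barcodes and after thinning. For scrambled against untreated it was 0.30, and 0.38 with TMM factors or 0.34 after thinning. At a 2-fold limit, 7, 10, 18 and 13 members were lower and 0, 1, 1 and 0 higher in the 4 erlotinib pairs, against 11.9, 12.8, 15.5 and 12.4% of all genes lower and 10.1, 12.3, 14.2 and 11.7% higher. No paired analysis was possible because the labels number no replicates. Depth limits PSMB10, PSMC1, PSMA8 and PSMG1 most.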
